A study of Mus musculus with 5 samples.

Results

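The insulin-like growth factor (IGF) genes described here were the ligands Igf1 and Igf2, the receptors Igf1r and Igf2r, and the binding proteins Igfbp2, Igfbp3, Igfbp4, Igfbp5, Igfbp6 and Igfbp7. These 10 genes, of 25414 in the deposited tables, were found by symbol through their RefSeq transcripts, and they held 20 of the 40201 transcripts listed. Neural stem cells (NSCs) and STO fibroblasts held nearly opposite sets of these RNAs. NSCs carried Igfbp2, Igfbp3 and Igfbp5 with almost no ligand RNA, whereas STO cells carried Igf2, Igf1 and Igfbp6. Igf2r, Igfbp4 and Igf1r were measured in both cell types and were 10.6-fold, 2.28-fold and 1.75-fold higher in STO cells. The genes were selected on their FPKM values in these same NSC and STO samples, so the differences between NSCs and STO cells are given as a description and carry no test.

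The study examined chromosome folding in female germline stem cells beside other stem cells and a somatic line, and the RNA-seq used here covered 2 replicates of NSCs and 3 of STO cells. Primary NSCs came from the cortex of midgestation C57BL/6 mouse embryos at passages 5 to 8. They grew without serum, on laminin, with 20 ng/ml of epidermal growth factor, 20 ng/ml of basic fibroblast growth factor, heparin and 2% B27, a supplement that contains insulin. STO is an established line of SIM mouse embryonic fibroblasts, labelled with the strain C57BL/6 and a passage above 30, and it grew in medium with 10% fetal bovine serum, which brings IGFs and their binding proteins of its own. The STO line is resistant to thioguanine and ouabain by its name, no drug treatment or engineered change was named for these samples, and cell type, medium and passage cannot be told apart. Nothing in the labels says that replicates of a cell type were separate cultures, so any p-value below measures only the spread between these samples, which may be technical. In cultures measured in bulk, fewer cells with a transcript and less of it per cell cannot be told apart.

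IGF1 and IGF2 are small secreted hormones related to insulin. Both bind IGF1R, a tyrosine kinase that signals through the PI3K-AKT and RAS-ERK pathways, while IGF2R, also the cation-independent mannose 6-phosphate receptor, carries IGF2 to lysosomes for breakdown. The secreted IGF-binding proteins hold the ligands, prolong their life and limit or deliver them to the receptor, until proteases cut them. In the embryo IGF2 is a major growth factor of mesenchymal tissues, and in the nervous system IGF signalling promotes the growth and survival of neural progenitors. In most mouse tissues Igf2 is expressed from the paternal and Igf2r from the maternal chromosome, and the chromosome in use was not tested in these samples.

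All levels below are in FPKM (fragments per kilobase of transcript, scaled to the number of mapped fragments), a level per length that allows genes to be compared, summed over the transcripts of a gene. The deposited intervals implied 15223341 to 22271895 fragments per sample, and Pearson's r across genes between replicates of a cell type was 0.994 to 0.995 on the log2(FPKM + 1) scale. The labels were checked against marker genes. Of the neural stem cell markers, Nes was at 176 and 169 FPKM, Sox2 at 308 and 276, Pax6 at 5.04 and 5.22 and Olig2 at 499 and 493 FPKM in NSCs, whereas Nes did not exceed 0.0724 FPKM in STO cells and Sox2, Pax6 and Olig2 were listed at 0 there. All 6 fibroblast markers had a mean of at least 1 FPKM in STO cells, against 2 of 6 in NSCs, with sums of 1672 to 1792 FPKM against 35.2 to 35.4 in NSCs. At the same level of 1 FPKM, the NSC libraries also held 4 of 4 astrocyte markers (70.4 to 71.4 FPKM). They held 3 of 4 neuronal markers (115 FPKM in both, of which Map2 gave 100 and 102) and 3 of 4 oligodendrocyte markers (123 to 127 FPKM). The part of such cells in the NSC values below was not tested. STO cells held 2 of 4 neuronal markers (12.3 to 12.8 FPKM) but no astrocyte or oligodendrocyte marker. Among the neuronal markers, Tubb3 was at 9.25 and 8.14 FPKM in NSCs and at 8.57, 7.84 and 8.49 in STO cells. Endothelial markers summed to at most 0.576 FPKM in any sample. Microglial markers summed to at most 0.0481 in NSCs and 9.75 to 10.1 in STO cells, nearly all of the latter from Tmem119. Pericyte markers summed to 25.2 to 26.6 FPKM in NSCs, mostly from Cspg4, and to 27.8 to 29.3 in STO cells, mostly from Pdgfrb. Their sum thus did not set the cell types far apart.

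Of the 12292 genes tested between the cell types with limma, 85.6% differed at an adjusted p under 0.05, with 41.9% higher and 43.7% lower in STO cells. A difference of at least 1 in log2(FPKM + 1) was also seen for 38.4% of the genes, of which 17.1% of all were higher and 21.3% lower. The replicates of the cell types were apart for 89.9% of the genes, with STO cells above for 43.9% and NSCs above for 46%. Of the 10 IGF genes, 6 lay higher in every STO replicate and 3 lay higher in every NSC replicate, and Igfbp7 overlapped. Since most genes were apart and these were chosen on the same contrast, nothing is read from this count.

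**Figure D1:**
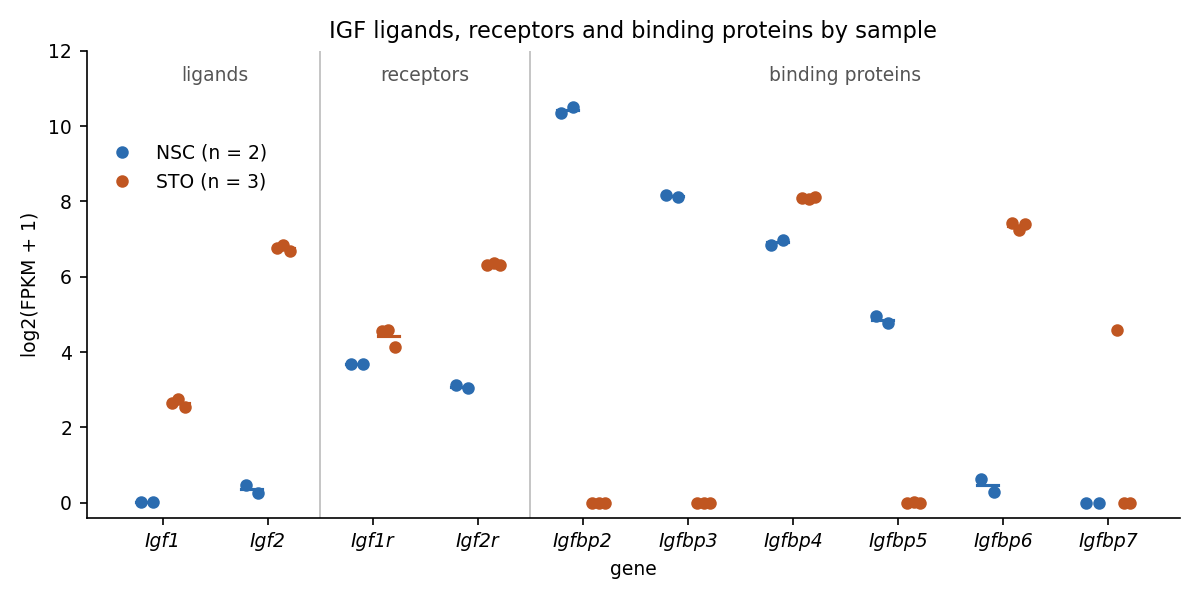
Level of each IGF gene in each sample, on the log2(FPKM + 1) scale, with ligands on the left, receptors in the middle and binding proteins on the right. Each point is a sample and each short line the mean of a cell type, left out for Igfbp7. The 3 STO points of Igf2 and of Igfbp6 lie near 7 where the NSC points are below 1, and the pattern is inverted for Igfbp2, Igfbp3 and Igfbp5.

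Igf2, the main fetal IGF, spans chr7:149836673-149852721 on the minus strand in mm9. Its level was 0.398 and 0.206 FPKM in the NSC replicates and 107, 113 and 102 FPKM in the STO replicates. The means were 0.302 ± 0.135 FPKM (SD, n = 2) in NSCs and 107 ± 5.65 (SD, n = 3) in STO cells, a difference of 6.38 in log2(FPKM + 1). Igf2 thus stood among the most abundant RNAs of STO cells, at ranks 548 to 636 of 25414 genes, and at ranks 12297 to 12905 in NSCs. Igf2os and Mir483, whose loci overlap Igf2, were listed at 0 in all 5 samples. The libraries were made with an mRNA kit, so no absence is read from the 0 of Mir483, a microRNA gene.

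Igf1, which growth hormone induces after birth and which many tissues also make locally, spans chr10:87321010-87399792 on the plus strand. Its level was 0.00910 and 0.0123 FPKM in NSCs and 5.32, 5.74 and 4.84 FPKM in STO cells. The value of NSC replicate 1 came from NM_001111276 and that of NSC replicate 2 from NM_001111275, each with a deposited interval that began at 0, so Igf1 was barely detectable in NSCs at this depth. The STO mean was 5.30 ± 0.448 FPKM (SD, n = 3), and the difference was 2.64 in log2(FPKM + 1). Summed over both ligands, the level was 0.313 ± 0.133 FPKM in NSCs (SD, n = 2) and 113 ± 6.10 in STO cells (SD, n = 3), and Igf2 made up nearly all of the latter.

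The mouse Igf2 gene has several promoters, and the RefSeq transcripts separate 4 start sites, with the other 3 lying 1308, 3775 and 9320 bases upstream of the last one. In STO cells all of the Igf2 level, 100% in each of the 3 replicates, was assigned to NM_001122737, which begins at the last start. In NSCs the same transcript had 0.335 and 0.145 FPKM, 84.1% and 70.4% of the total, and NM_010514, which begins 1308 bases upstream, had 0.0631 and 0.0609 FPKM with intervals of 85.3% to 93.5% of the value to either side. NM_001122736, NM_001315488 and NM_001315489 were listed at 0 in all 5 samples. Assignment among transcripts that share exons was made by the authors' software, and NM_001315489 shares its start with NM_001122737.

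The stretches from 100 bases before to 20 bases after each of the 4 starts are shown because the starts differed in use. They are from RefSeq (GRCm38.p6), run 5′ to 3′ on the minus strand, and lie at chr7:142657477-142657596 for NM_001122737, chr7:142658785-142658904 for NM_010514, chr7:142661252-142661371 for NM_001122736 and chr7:142666797-142666916 for NM_001315488. Capitals mark GGGCGG or its reverse complement CCGCCC, the core of a GC box.
Igf2 start of NM_001122737: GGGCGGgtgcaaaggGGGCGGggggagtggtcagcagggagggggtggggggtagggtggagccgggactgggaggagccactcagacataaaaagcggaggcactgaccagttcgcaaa
Igf2 start of NM_010514: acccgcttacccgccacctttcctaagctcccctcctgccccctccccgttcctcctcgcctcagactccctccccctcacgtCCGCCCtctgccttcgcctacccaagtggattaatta
Igf2 start of NM_001122736: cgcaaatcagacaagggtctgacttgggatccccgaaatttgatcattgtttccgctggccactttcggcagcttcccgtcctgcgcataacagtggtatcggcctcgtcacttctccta
Igf2 start of NM_001315488: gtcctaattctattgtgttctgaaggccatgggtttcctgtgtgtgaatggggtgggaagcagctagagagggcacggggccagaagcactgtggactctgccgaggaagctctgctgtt
The start that carried the STO transcript held 2 GC boxes in these letters and the next one upstream held 1, whereas the 2 starts farther upstream held none in their 300-base windows. Over 32851 RefSeq promoter windows of 300 bases, 35.7% held GGGCGG on either strand. The number of CpG dinucleotides per window was 7, 24, 14 and 2 in the order shown, against a median of 7 over all promoters.

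Igf1 was listed with 5 transcripts, and their values differed among the STO replicates more than the gene total did. NM_001111275 had 4.28, 4.26 and 3.29 FPKM, 80.4%, 74.2% and 67.9% of the Igf1 level, and NM_010512, which begins at the same base, had 1.04, 0.689 and 1.56 FPKM. NM_001111276, which begins farther downstream, had 0.791 FPKM in STO replicate 2 and was listed at 0 in replicates 1 and 3. NM_001111274 and NM_001314010 were at 0 in all 5 samples. The share of NM_001111275 was therefore above that of the other transcripts in every STO replicate.

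**Figure D2:**
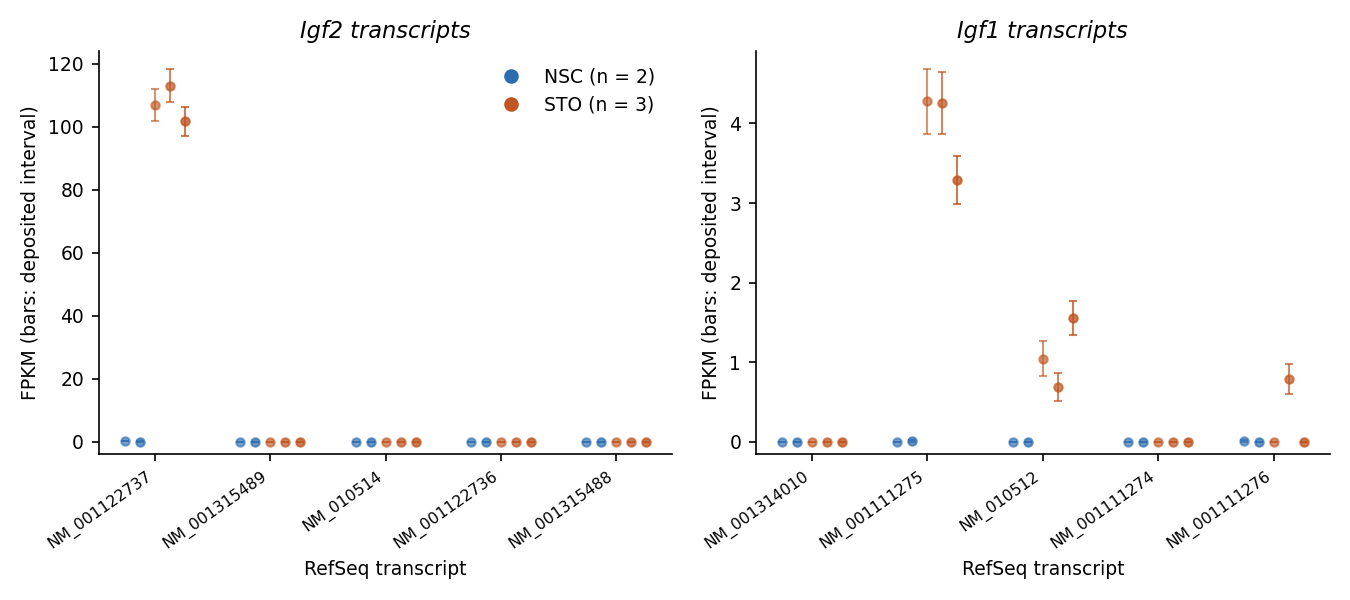
FPKM of each RefSeq transcript of Igf2 (left) and Igf1 (right) in each sample, with bars for the deposited confidence interval. In STO cells NM_001122737 carried the whole Igf2 level, 102 to 113 FPKM, and NM_001111275 carried 67.9% to 80.4% of the Igf1 level.

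The receptors were present in both cell types. Igf1r, the signalling receptor for both ligands (chr7:75097143-75378553, plus strand), was at 11.8 and 11.9 FPKM in NSCs and at 22.5, 23.1 and 16.5 FPKM in STO cells. The STO replicates lay above both NSC replicates but were spread, with STO replicate 3 below the other two. The means were 11.9 ± 0.0598 (SD, n = 2) and 20.7 ± 3.64 FPKM (SD, n = 3), and the difference in log2(FPKM + 1) was 0.74, or 0.89 without STO replicate 3. The deposited intervals of Igf1r reached only 2.40% to 3.01% of the value to either side, so the spread among STO replicates was wider than these intervals.

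Igf2r, the receptor that clears IGF2 (chr17:12875272-12962572, minus strand), was at 7.79 and 7.19 FPKM in NSCs and at 79.2, 81.4 and 78.4 FPKM in STO cells. The replicates of each cell type lay close together and far from the other cell type. The means of 7.49 ± 0.423 (SD, n = 2) and 79.6 ± 1.54 FPKM (SD, n = 3) gave a difference of 3.25 in log2(FPKM + 1). The order of the receptors was thus inverted, with Igf1r above Igf2r in both NSC replicates and Igf2r above Igf1r in all 3 STO replicates. Airn is the antisense RNA that silences Igf2r on the paternal chromosome in most tissues, and its locus overlaps Igf2r. Its level was 2.69 and 4.37 FPKM in NSCs and 2.04, 1.75 and 1.93 FPKM in STO cells. The libraries were stranded, but whether the quantification used strand is not given in the sources used here.

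The 6 binding proteins summed to 1722 and 1871 FPKM in the NSC replicates and to 467, 417 and 445 FPKM in the STO replicates. The means were 1797 ± 105 (SD, n = 2) and 443 ± 24.9 (SD, n = 3). Different genes filled these totals, and Igfbp4 was the only one above 1 FPKM in all 5 samples.

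Igfbp2, the main binding protein of the developing brain and cerebrospinal fluid (chr1:72871054-72899045, plus strand), was at 1291 and 1444 FPKM in NSCs and was listed at 0 in all 3 STO replicates. It ranked between 21 and 29 among the 25414 genes of NSCs. It made up 76.1% ± 1.57 (SD, n = 2) of the summed binding-protein level there, all from NM_008342. Igfbp3, the main carrier of IGFs in serum (chr11:7106096-7113926, minus strand), was at 285 and 276 FPKM in NSCs and also listed at 0 in the 3 STO replicates. It had 15.7% ± 1.30 (SD, n = 2) of the NSC total. No other locus overlaps Igfbp2 or Igfbp3, and because a listed 0 can be a failed estimate, no fold is given against it.

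Igfbp5, the most conserved member of the family and one that binds extracellular matrix (chr1:72904639-72921439, minus strand), was at 30.1 and 26.1 FPKM in NSCs. In STO cells it was at 0, 0.0132 and 0 FPKM, and the interval of the single value above 0 reached 142% of it to either side. Igfbp5 held 1.57% of the NSC binding-protein total. It lies tail to tail with Igfbp2, with 5593 bases between them, and both genes of this pair were high in NSCs and at or near 0 in STO cells. The similar pair of Igfbp1 and Igfbp3 is separated by 3546 bases, but Igfbp1, a liver and decidual binding protein, was listed at 0 in all 5 samples.

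Igfbp4, which inhibits IGF action until it is cut by the protease PAPP-A (chr11:98902558-98913969, plus strand), was at 115 and 124 FPKM in NSCs and at 273, 268 and 277 FPKM in STO cells. The means were 120 ± 6.80 (SD, n = 2) and 273 ± 4.40 FPKM (SD, n = 3), and the replicates did not overlap. Its share of the binding-protein level was 6.66% in NSCs and 61.7% ± 2.98 (SD, n = 3) in STO cells. Igfbp6, which prefers IGF2 over IGF1 (chr15:101974617-101979943, plus strand), was at 0.543 and 0.225 FPKM in NSCs and at 171, 149 and 168 FPKM in STO cells. It made up 36.7% ± 1.02 (SD, n = 3) of the STO total, and its difference of 6.89 in log2(FPKM + 1) was above that of Igf2.

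**Figure D3:**
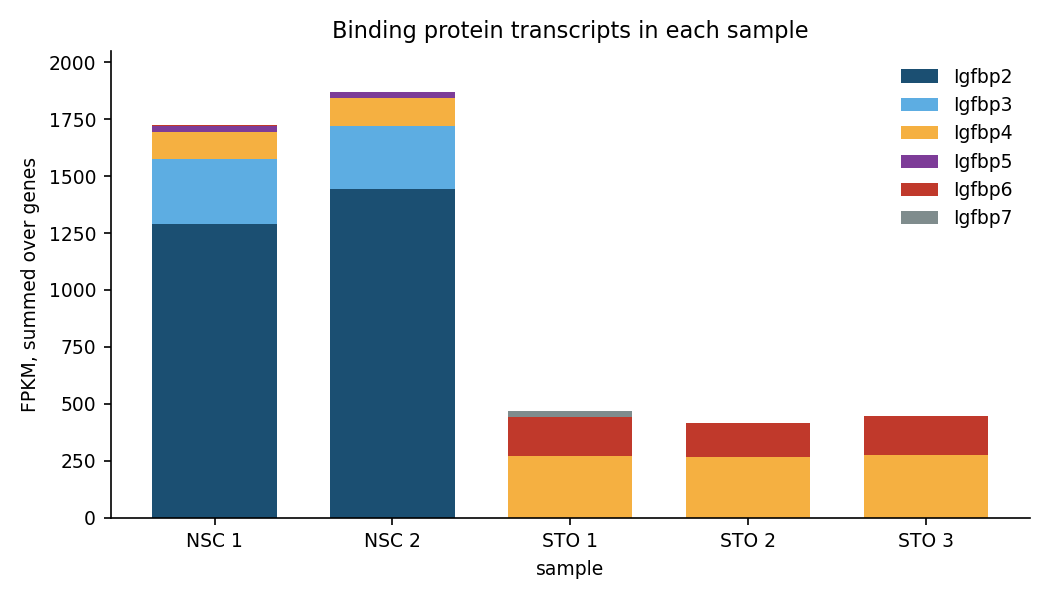
Summed FPKM of the 6 binding proteins in each sample, divided by gene. Igfbp2 and Igfbp3 filled most of the NSC bars of 1722 and 1871 FPKM, and Igfbp4 and Igfbp6 most of the STO bars of 417 to 467 FPKM.

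The promoter stretches of all binding proteins but Igfbp7 are shown. The genes higher in NSCs (Igfbp2, Igfbp3, Igfbp5) can so be set beside those higher in STO cells (Igfbp4, Igfbp6). Igfbp4 was not low in NSCs, where its 115 and 124 FPKM lay above the 30.1 and 26.1 FPKM of Igfbp5. Each runs 5′ to 3′ on the strand of its gene from 100 bases before to 20 bases after the RefSeq start in GRCm38.p6, at chr1:72824380-72824499 (plus) for Igfbp2, chr11:7213904-7214023 (minus) for Igfbp3, chr1:72874846-72874965 (minus) for Igfbp5, chr11:99041144-99041263 (plus) for Igfbp4 and chr15:102144086-102144205 (plus) for Igfbp6. Capitals mark GGGCGG and TATAAA, the latter a TATA box core, or their reverse complements CCGCCC and TTTATA.
Igfbp2: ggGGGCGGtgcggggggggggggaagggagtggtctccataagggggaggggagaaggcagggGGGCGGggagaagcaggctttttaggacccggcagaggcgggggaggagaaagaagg
Igfbp3: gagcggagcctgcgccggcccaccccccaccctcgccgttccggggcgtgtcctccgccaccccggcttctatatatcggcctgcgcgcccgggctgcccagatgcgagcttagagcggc
Igfbp5: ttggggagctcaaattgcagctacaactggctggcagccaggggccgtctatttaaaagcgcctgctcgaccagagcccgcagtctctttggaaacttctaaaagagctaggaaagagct
Igfbp4: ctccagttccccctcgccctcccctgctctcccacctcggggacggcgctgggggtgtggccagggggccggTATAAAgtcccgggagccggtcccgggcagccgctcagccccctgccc
Igfbp6: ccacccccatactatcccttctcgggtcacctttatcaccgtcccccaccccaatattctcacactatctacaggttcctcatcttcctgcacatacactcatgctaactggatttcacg
Igfbp4 held TATAAA with its first base at -28 from the start, and Igfbp6 held it only at -148, outside the letters shown. Only these exact letters were sought, so variants of either box were not counted in any gene. Igfbp2 held GGGCGG 3 times, of which 2 are shown, and Igfbp3, Igfbp4, Igfbp5 and Igfbp6 held none. Over the 14 windows of the 10 IGF genes, 2 held TATAAA and 6 held GGGCGG, against 13.6% and 35.7% of all promoters. CpG counts per 300-base window were 18 for Igfbp2, 37 for Igfbp3, 10 for Igfbp5, 27 for Igfbp4 and 8 for Igfbp6. All lay above the median of 7 over all promoters. The ranges of the genes higher in NSCs and of those higher in STO cells overlapped.

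Igfbp7, a relative with low affinity for IGFs that is made by vessels and stroma (chr5:77778265-77837070, minus strand), was at 23.1 FPKM in STO replicate 1 and listed at 0 in the other two STO replicates and both NSC replicates. The deposited interval of this value was 21.0 to 25.3 FPKM. Without STO replicate 1 the gene was at 0 in every sample, so no level is assigned to STO cells. Igfbp7 shares 89 bases with Polr2b, an RNA polymerase II subunit that was at 35.3 and 35.5 FPKM in NSCs and at 59.2, 68.5 and 71.0 FPKM in STO cells. Of the 6800 genes that reached 10 FPKM in an STO replicate, 11 (0.162%) were listed at 0 in another, as were 7 of 6636 (0.105%) in NSCs. All of these genes overlapped another locus, compared with 22.0% of the genes that reached 10 FPKM in STO cells and 22.4% in NSCs.

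**Figure D4:**
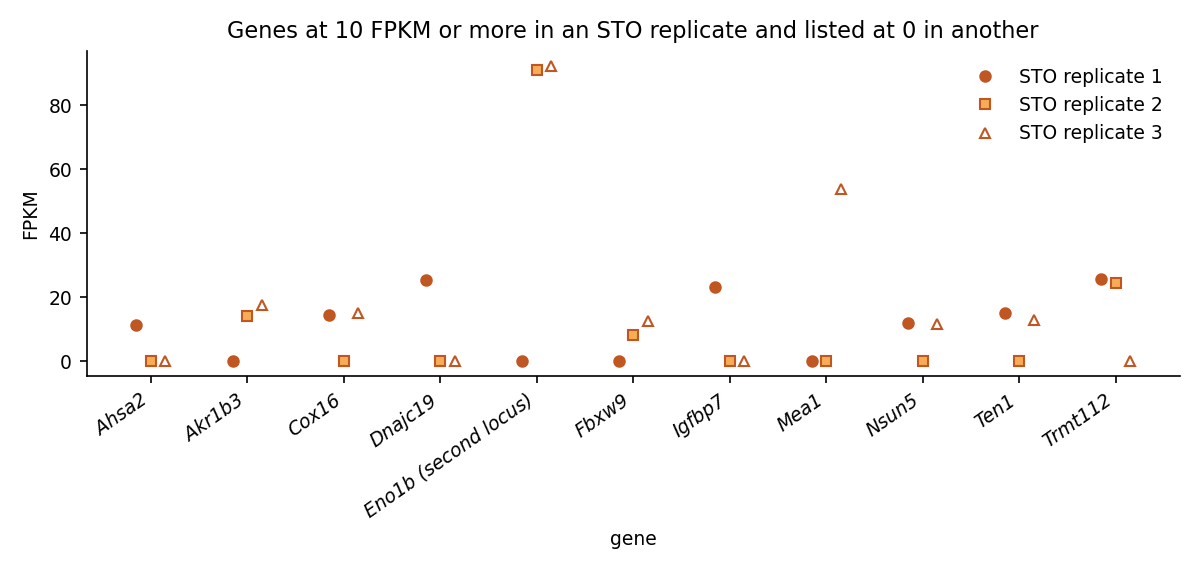
FPKM in the 3 STO replicates for the 11 genes that reached 10 FPKM in an STO replicate and were listed at 0 in another. Igfbp7 had 23.1 FPKM in replicate 1 and 0 in replicates 2 and 3.

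Ordered by level, the NSC genes ran from Igfbp2 through Igfbp3, Igfbp4, Igfbp5, Igf1r and Igf2r to Igfbp6, Igf2, Igf1 and Igfbp7. Only Igfbp6 and Igf2 overlapped as neighbours in this order. In STO cells, with Igfbp7 left unplaced because its values ran from 0 to 23.1 FPKM, the order was Igfbp4, Igfbp6, Igf2, Igf2r, Igf1r, Igf1, Igfbp5, Igfbp3 and Igfbp2. The first 6 of these did not overlap their neighbours, and the last 3 overlapped each other at or near 0. The sum of the binding proteins exceeded that of the ligands in every sample. Receptors summed to 19.3 ± 0.363 FPKM in NSCs (SD, n = 2) and 100.4 ± 4.93 in STO cells (SD, n = 3).

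Other genes of the pathway, and genes around Igf2 and Igf2r, were taken as 8 lists. These held 93 different genes, with a gene in more than 1 list counted once. Of the 93 genes, 70 were tested with limma and Benjamini-Hochberg adjustment over all 12292 genes. Of these, 33 were higher in STO cells, 30 were lower and 7 did not pass, and 21.4% rose and 15.7% fell by at least 1 in log2(FPKM + 1). Over all genes tested these shares were 41.9% higher, 43.7% lower, and 17.1% and 21.3% by at least 1, and the counts of each list below stand against the same shares. The median difference of the lists was 0.014, against -0.023 over all genes. By at least 1, 15 genes of the lists were higher and 11 lower, or 19 and 9 with quantile normalization. Nothing particular to the lists is read from these counts.

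Among receptors and adaptors 6 of 13 tested genes were higher in STO cells, 5 were lower and 2 did not pass. Insr, the insulin receptor, which can also form hybrids with IGF1R, was at 9.62 and 8.85 FPKM in NSCs and 7.14, 6.49 and 5.80 in STO cells, a difference of -0.46 (SE 0.088, adjusted p = 0.0029 by limma) that did not pass without NSC replicate 1 (-0.40, adjusted p = 0.060). The adaptor Shc1 rose from 6.00 and 5.66 FPKM to 57.5, 54.6 and 51.3 (difference 3.02, SE 0.065, limma adjusted p = 7.1e-08). Grb10, an imprinted adaptor that dampens IGF1R and insulin receptor signalling, rose from 0.724 and 0.567 to 30.9, 30.5 and 27.2 FPKM (4.21, SE 0.080, limma adjusted p = 4.0e-08). The phosphatase Ptpn11 was higher by 1.23, while the adaptor Grb2 and the scaffold Rack1 differed by 0.010 and 0.017 and did not pass (limma adjusted p = 0.86 and 0.85).

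In the PI3K, AKT, FOXO and mTOR list 11 of 24 tested genes were higher in STO cells, 9 were lower and 4 did not pass. Pik3cb, a catalytic subunit of PI3K, was at 3.74 and 3.98 FPKM in NSCs and 14.4, 14.3 and 14.6 in STO cells (difference 1.67, limma adjusted p = 4.0e-07). Rictor of the mTORC2 complex was higher by 1.38 (2.3e-06), the kinase Akt1 by 0.83 (1.3e-05), the mTORC1 activator Rheb by 0.82 (9.1e-06) and the translation repressor Eif4ebp1 by 0.60 (0.0015), each adjusted p in brackets from limma. In the RAS and ERK list 3 of 10 genes were higher, 6 were lower and 1 did not pass, and none differed by 1 or more, although Mapk3 exceeded 1 under other settings (1.16 with equal FPKM totals). Araf and Map2k1, kinases at successive steps of this cascade, were lower, with differences of -0.59 and -0.44, whereas the kinase Mapk3 was higher by 0.99 (limma adjusted p = 0.00013, 0.00031 and 8.4e-06). Map2k2 was higher by 0.29 (limma adjusted p = 0.021) but did not pass without NSC replicate 1 (0.12) or STO replicate 1 (0.063).

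Proteases, their inhibitors and partners of the ternary complex gave 2 of 5 tested genes higher and 3 lower in STO cells. Htra1, a secreted serine protease that cleaves IGF-binding proteins, was at 40.2 and 42.5 FPKM in NSCs and 1.35, 1.25 and 1.47 in STO cells (difference -4.17, SE 0.063, limma adjusted p = 1.6e-08). Adam12, a metalloprotease that cleaves IGFBP3 and IGFBP5, followed the same order, with 25.5 and 28.0 against 0.878, 0.973 and 0.842 FPKM (-3.87, SE 0.065, limma adjusted p = 2.3e-08). Ctsd, the lysosomal protease cathepsin D, was higher in STO cells by 1.06 (limma adjusted p = 2.8e-05). Pappa, the IGFBP4 protease, named here after its values were seen, was at 0.00577 and 0.0105 FPKM in NSCs and 0.643, 0.719 and 0.609 in STO cells, below the level needed for the test.

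Of the other proteins with an IGFBP domain, 7 of 9 tested were higher in STO cells and 2 were lower, and Htra1 counts here as well. Ccn1, a matricellular protein of fibroblasts, rose from 5.94 and 5.42 FPKM to 227, 214 and 228 (5.07, SE 0.060, limma adjusted p = 7.8e-09), and Crim1 rose from 4.93 and 4.92 to 25.2, 26.9 and 24.0 FPKM (2.15, limma adjusted p = 2.7e-07). No further insulin family hormone approached the STO level of Igf2. Ins1, Ins2 and Insl3 were listed at 0 in all 5 samples, and Insl6 was higher in STO cells by 0.99 (limma adjusted p = 0.00012). Rln1 was at 1.19 and 2.12 FPKM in NSCs and listed at 0 in STO cells (limma adjusted p = 0.00012), and Rln3 did not exceed 0.0669 FPKM. For Rln1, and for Igf2bp1 and Cdkn1c below, the p-value is against a listed 0, which can be a failed estimate.

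The IGF2 mRNA-binding proteins, which bind Igf2 and many other transcripts, were all tested and 2 were higher and 1 lower in STO cells. Igf2bp1 was listed at 0 in both NSC replicates and was at 6.38, 6.36 and 5.88 FPKM in STO cells (limma adjusted p = 4.0e-08). Igf2bp2 rose from 26.1 and 27.2 to 49.7, 51.5 and 50.4 FPKM (0.90, limma adjusted p = 6.2e-06), whereas Igf2bp3 fell from 18.8 and 20.0 to 7.85, 7.86 and 7.31 FPKM (-1.23, limma adjusted p = 3.0e-06).

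**Figure D5:**
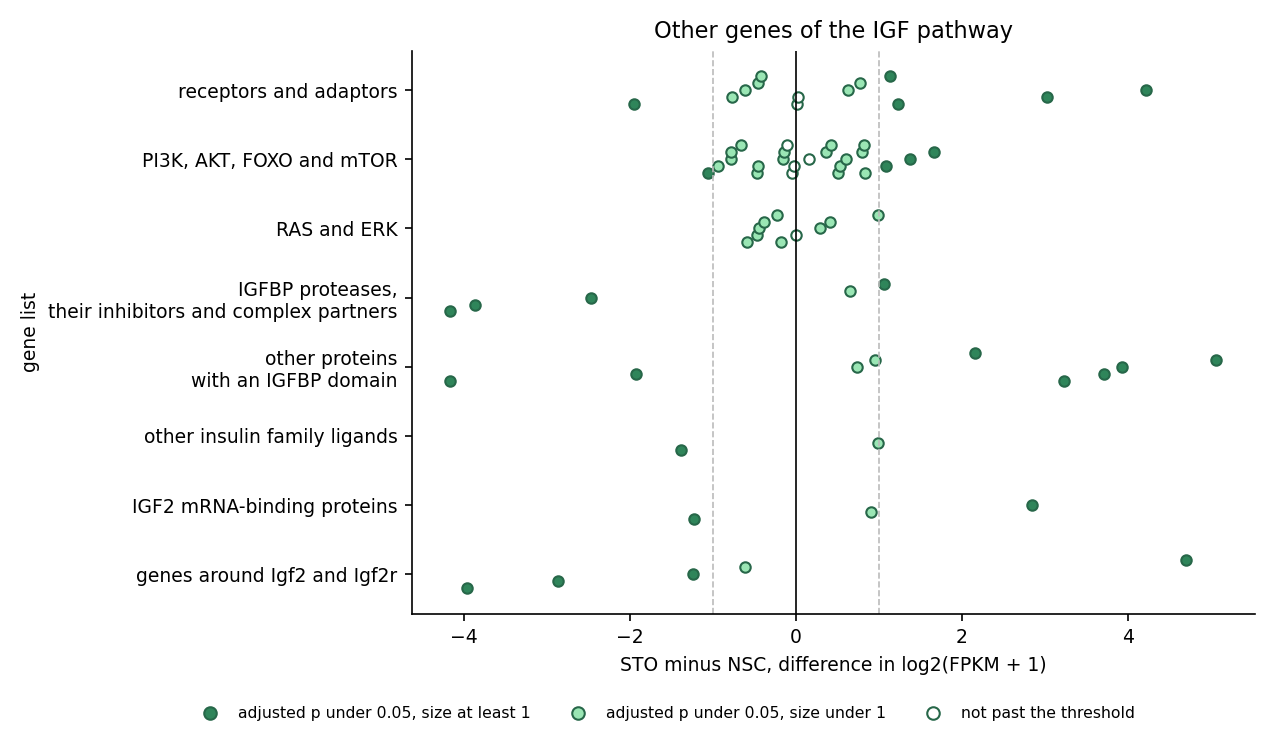
Difference between STO cells and NSCs in log2(FPKM + 1) for each tested gene of the 8 pathway lists, with positive values higher in STO cells. Filled points passed an adjusted p under 0.05 and dark ones also differed by at least 1. The RAS and ERK genes lie within 1 of 0, while 5 of the 9 IGFBP-domain genes tested lie above 1 and 2 lie below -1.

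Of the genes around Igf2 and Igf2r, 1 of 5 tested was higher in STO cells and 4 were lower. H19, the maternally expressed RNA that shares enhancers with Igf2 and lies 72.6 kb from it, was at 36.6 and 25.3 FPKM in NSCs and at 749, 870 and 832 FPKM in STO cells (4.70, SE 0.16, limma adjusted p = 5.4e-07). H19 and Igf2 thus both stood higher in STO cells, although H19 was at 36.6 and 25.3 FPKM in NSCs where Igf2 was below 1. Cdkn1c, an imprinted cell cycle inhibitor, was at 14.2 and 15.1 FPKM in NSCs and listed at 0 in STO cells (limma adjusted p = 8.7e-09), and Cd81, a tetraspanin of the same chromosome region, fell from 588 and 599 to 267, 260 and 229 FPKM (-1.24, limma adjusted p = 1.7e-05). The fit for Airn, named for its overlap with Igf2r, gave a difference of -0.62 (SE 0.15, limma adjusted p = 0.0094).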

How the data were processed

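RNA-seq of 2 NSC and 3 STO replicates was grouped by the labels. By the study's methods and the submitters' processing notes, stranded paired-end libraries were aligned to mm9 with HISAT2 (version given as 4.8.2) and quantified with Cufflinks 2.2.1 on RefSeq transcripts. The authors deposited FPKM with confidence bounds for 40201 transcripts, with depth already divided out and no read counts. Symbols were matched for 39951 transcripts (99.4%) through a RefSeq table for GRCm38.p6. FPKM was summed per symbol and overlapping locus. Deposited starts count from 0 and were raised by 1. Promoter letters and coordinates are from the RefSeq table in GRCm38.p6, and each of the 14 windows matched mm9 once. Fragments per sample were estimated from the widths of the deposited intervals, as if these held counting error alone. Widths can also hold doubt in assigning fragments among transcripts, so the fragment numbers are rough. For Igfbp2, with 2 transcripts, the intervals reached 4.20% to 4.21% of the value, against 1.33% to 1.37% for the lower Igfbp3. The intervals cover no spread between samples.

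Genes with a mean of at least 1 FPKM in either cell type (12292) were compared on log2(FPKM + 1), which understates changes of low genes, with limma 3.58.1 in R 4.3.3 (trend) and Benjamini-Hochberg adjustment at 0.05. IGF genes were described without a test. The genes and lists were chosen with earlier results of these data known. Named were the 10 IGF genes, Insr, H19, Igfbp1, the Igf2bp genes and, from each list, up to 3 genes with the highest mean and up to 2 with the largest called difference. Some genes of the lists are not reported here by name. Alternatives were a pseudocount of 0.1, scaling to equal FPKM totals, quantile normalization, no filter, no trend, the highest transcript alone, a replicate block and leaving out each replicate. The fit was tested on simulated data in which few genes differed, unlike these samples, so this checks only that it ran as written.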

Additional observations from a re-analysis of the deposited data

How the results depend on the processing

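Of the IGF genes, 6 lay higher in every STO replicate and 3 lower under each alternative run, except that quantile normalization gave 7 and 3. The added gene was Igfbp7, which was listed at 0 in all samples but STO replicate 1, so no STO level is read from it. Their 119 recomputed single values included 16 that moved by more than 1 SD and none that changed sign. Some could not move, as without the trend or the filter, or with the highest transcript alone for genes with 1 transcript. Igfbp7 was judged against its own SD of 2.65, so its move from 1.53 to 2.62 with a pseudocount of 0.1 did not count. The count of 16 is therefore no measure of robustness. Over all genes the calls were 5153 higher and 5375 lower in STO cells, and leaving out a replicate gave 4704 to 5065 and 4900 to 5253. In the pathway lists 33 and 30 became 32 to 33 and 27 to 28. Without an NSC replicate, the remaining one was assumed to vary like the STO replicates. Leaving out a replicate gave Grb2 -0.030 (without NSC replicate 2) to 0.050 and Rack1 -0.043 (without NSC replicate 2) to 0.077, with -0.013 without STO replicate 1. Scaling to equal totals moved the median of all genes from -0.023 to 0.14, and both Grb2 (0.18, limma adjusted p = 0.022) and Rack1 (0.19, 0.049) then passed, as did Rack1 with quantile normalization (0.44, 0.00044). The calls over all genes became 5901 higher and 4649 lower with equal totals and 5445 and 5054 with quantile normalization, so the larger direction changed. By at least 1, they went from 2103 and 2617 to 2494 and 2289 with equal totals and 2399 and 2257 with quantile normalization. The lists gave 37 and 26 with equal totals and 34 and 27 with quantile normalization. Deviations from the cell type means correlated at 0.0075 and 0.061 between same-numbered samples. With 2 NSC replicates these deviations mirror each other, so the values cannot tell whether the numbers pair the samples. The replicate block gave 4994 higher and 5252 lower genes over all genes and 32 and 27 in the lists, and Map2k2 then missed the threshold (limma adjusted p = 0.054).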
